A study of Mus musculus with 11 samples.

Results

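The SR proteins and the heterogeneous nuclear ribonucleoproteins (hnRNPs) are the main families of RNA-binding regulators of splicing. Their genes were taken as every protein-coding gene of the deposited count table whose name is Srsf followed by a number or begins with Hnrnp. This gave 32 genes, 11 SR and 21 hnRNP, of 47131 genes in the table. The level of 30 of them, 10 SR and 20 hnRNP, could be tested. Srsf12 had 0 to 3 counts in the NAP libraries and 0 to 12 in the controls. Hnrnpa1l2-ps2, whose name marks it as a pseudogene although the table lists it as protein-coding, had 1 count in all.

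RNA was sequenced from mouse colorectal organoids, epithelial cultures kept in Matrigel, whose donor C57BL/6J mice were female and 6 to 8 weeks old; the starting tissue was colon. The NAP group (n = 6) received 10 pM NAP for 48 h. The control group (n = 5) shared that strain, sex and age and is described as having no treatment in one label and as receiving PBS as vehicle in another. The labels do not spell out NAP, put all libraries in batch 1, and call them biological replicates without naming separate animals or cultures. The p-values therefore measure only how these libraries vary, and part of that variation may be technical.

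SR proteins bind exons through RNA recognition motifs and recruit the splicing machinery through a domain rich in arginine and serine. That domain is phosphorylated by the SRPK and CLK kinases. The hnRNPs coat nascent transcripts, often oppose the use of nearby splice sites, and also act in export, stability and translation of mRNA. Many genes of both families limit their own output through a poison exon, an exon whose inclusion brings in an early stop codon and sends the transcript to nonsense-mediated decay (NMD). In GENCODE M21, 19 of the 30 tested genes had at least 1 transcript annotated for NMD (63.3%), against 28.8% of 12327 tested protein-coding genes. The share was 9 of 10 for SR genes and 10 of 20 for hnRNP genes. The counts are per gene, so productive and decayed isoforms were added together.

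Promoters are shown for the 2 genes with the smallest p in each direction: Hnrnpa0 and Srsf9, with negative fold changes in NAP, and Hnrnpc and Srsf11, with positive ones. Each is RefSeq sequence of build GRCm38.p6, 250 bases before to 50 bases after the first listed start, read 5′ to 3′ on the gene's strand. Capitals mark CCAAT, or ATTGG, which is CCAAT on the other strand.
Hnrnpa0, chr13:58128507-58128806, minus strand: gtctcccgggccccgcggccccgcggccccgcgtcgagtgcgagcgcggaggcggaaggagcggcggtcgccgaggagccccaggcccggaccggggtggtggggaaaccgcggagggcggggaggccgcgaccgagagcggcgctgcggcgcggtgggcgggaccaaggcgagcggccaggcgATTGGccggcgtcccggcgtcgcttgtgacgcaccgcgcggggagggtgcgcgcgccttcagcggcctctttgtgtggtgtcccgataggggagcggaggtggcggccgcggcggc
Srsf9, chr5:115326927-115327226, plus strand: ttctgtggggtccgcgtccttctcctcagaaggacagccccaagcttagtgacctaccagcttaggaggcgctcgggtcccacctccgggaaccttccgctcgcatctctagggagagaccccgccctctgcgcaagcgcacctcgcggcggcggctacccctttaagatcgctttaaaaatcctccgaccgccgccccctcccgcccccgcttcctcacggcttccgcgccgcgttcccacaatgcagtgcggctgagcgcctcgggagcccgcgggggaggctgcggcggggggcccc
Hnrnpc, chr14:52103972-52104271, minus strand: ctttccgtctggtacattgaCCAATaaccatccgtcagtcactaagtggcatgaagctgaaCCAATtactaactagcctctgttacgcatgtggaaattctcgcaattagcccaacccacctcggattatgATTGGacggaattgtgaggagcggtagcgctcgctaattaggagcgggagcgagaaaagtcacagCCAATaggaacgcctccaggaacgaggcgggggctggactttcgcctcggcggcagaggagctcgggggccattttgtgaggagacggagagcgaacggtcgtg
Srsf11, chr3:158036557-158036856, minus strand: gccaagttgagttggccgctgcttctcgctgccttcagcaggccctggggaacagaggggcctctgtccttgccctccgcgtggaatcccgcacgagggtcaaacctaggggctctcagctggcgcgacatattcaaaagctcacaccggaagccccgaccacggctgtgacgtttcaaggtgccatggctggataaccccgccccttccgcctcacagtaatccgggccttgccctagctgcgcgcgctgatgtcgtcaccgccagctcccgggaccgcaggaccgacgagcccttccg

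CCAAT occurred 4 times in the Hnrnpc window, 1 time in that of Hnrnpa0, and 0 times in those of Srsf9 and Srsf11. Of the tested members, 28 had a promoter in the table. CCAAT on either strand was found in 16 of these windows (57.1%), against 38.7% of 10923 windows of tested genes. The motif GGGCGG, searched on both strands, was found in 78.6% of the members' windows and 61.7% of all windows. The palindrome TGACGTCA was in 0 of the members' windows and in 3.12% of all windows. Other motifs searched were CGGAAG (35.7% of the members' windows against 30.7% of all), CACGTG (14.3% against 10.1%) and TATAAA (14.3% against 7.64%). The members' windows had a median GC content of 66.7%, against 60.3% over all windows. A match shows only that the letters occur.

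The libraries were unlike each other within both groups, the controls most of all. Controls 1 and 4 had high and controls 2 and 5 low levels of markers of stem and proliferating crypt cells, of which 9 of 10 were tested and none was at 0 in every library. Their summed level was 430 to 624 CPM in the NAP libraries, against 790, 276, 655, 1199 and 282 CPM in controls 1 to 5 (CPM are counts scaled to library size with TMM). Pcna ran against the other markers, at 129 to 440 CPM in the NAP libraries, against 170, 203, 233, 157 and 212 CPM in controls 1 to 5. Without Pcna the sum was 301, 149, 432, 196, 128 and 322 CPM in NAP 1 to 6, against 621, 72.4, 422, 1042 and 69.7 CPM in controls 1 to 5, so NAP 1, 3 and 6 were above NAP 2, 4 and 5. Mki67, a proliferation marker, had 70.6, 36.8, 114, 57.4, 37.8 and 119 CPM in NAP 1 to 6. Absorptive colonocyte markers ran the other way, with a sum of 3582 to 6410 CPM in the NAP libraries and 1822, 10779, 2794, 959 and 10822 CPM in controls 1 to 5. All 12 markers of colorectal epithelium were tested, while 0 of 6 fibroblast and 0 of 4 smooth muscle markers passed the filter on low counts. Count totals were 16546263 to 21947414 per library. Controls 2 and 5 also had more genes with any count, 27218 and 25725, at count totals of 16812194 and 16546263. Controls 1, 3 and 4 had 21404, 21172 and 22108 such genes, and the NAP libraries 19828 to 22390. The part of this difference in the results below was not tested. The mitochondrial share of counts was 6.51 ± 1.25% in NAP libraries (SD, n = 6) and 3.73 ± 0.90% in controls (SD, n = 5; exact permutation, two-sided p = 0.00433, or 0.0216 after adjustment over 5 measures). The rank correlation of each library's deviations with transcript GC content averaged -0.20 ± 0.23 in NAP libraries and 0.20 ± 0.14 in controls (SD, n = 6 and 5; exact permutation p = 0.0108, adjusted p = 0.0271). The part of the cell type markers in the results below was not tested. Removing GC and length trends gave 0 called members, where only 26 of 12472 genes were called. Leaving out mitochondrial genes also gave 0, where 305 of 14812 genes were called. Some values that moved with the GC and length trends are given below. In bulk RNA, fewer cells of a type and less RNA per cell cannot be told apart.

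The comparison of NAP with control asked whether the level of these genes differed after 48 h. No SR or hnRNP gene passed the quasi-likelihood test of edgeR at an adjusted p below 0.05. In that test 315 of 14840 genes passed (2.12%), 156 of them higher in NAP (1.05%) and 159 lower (1.07%). At an unadjusted p below 0.05 there were 5 members of 30 (16.7%), Hnrnpc and Srsf11 higher and Hnrnpa0, Srsf9 and Hnrnpab lower, against 23.6% of all genes. DESeq2 called 2 members, Hnrnpa0 and Srsf9, both lower in NAP, where it called 11.6% of all genes and 5.83% as lower. At an edgeR threshold of 0.10 the same 2 passed, where 9.97% of all genes did so and 5.4% as lower. Limma-voom called 0 members and 2.21% of all genes, and limma on log2(FPKM + 1) called 0 members and 2.42%. The NAP and control ranges of CPM overlapped in all 30 genes, so 0 were separate, against 4.7% of all genes.

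The fold changes were small in most members. The median log2 fold change, NAP minus control, was 0.04 over the 30 genes, -0.06 over the SR genes and 0.08 over the hnRNP genes, beside -0.07 over all genes tested. It was positive in 16 members and negative in 14, where 55.3% of all genes were negative. This balance turned with the processing. With GC and length trends removed 7 members were positive and 23 negative (median -0.12, SR -0.18, hnRNP -0.07, all genes -0.04). With count totals alone as the scaling, 11 were positive and 19 negative (median -0.08, all genes -0.14). The values ran between -0.87 for Hnrnpa0 and 0.49 for Hnrnpc. The 95% interval lay within ±1 for 26 of the 30 members and within ±0.5 for 4.

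**Figure D1:**
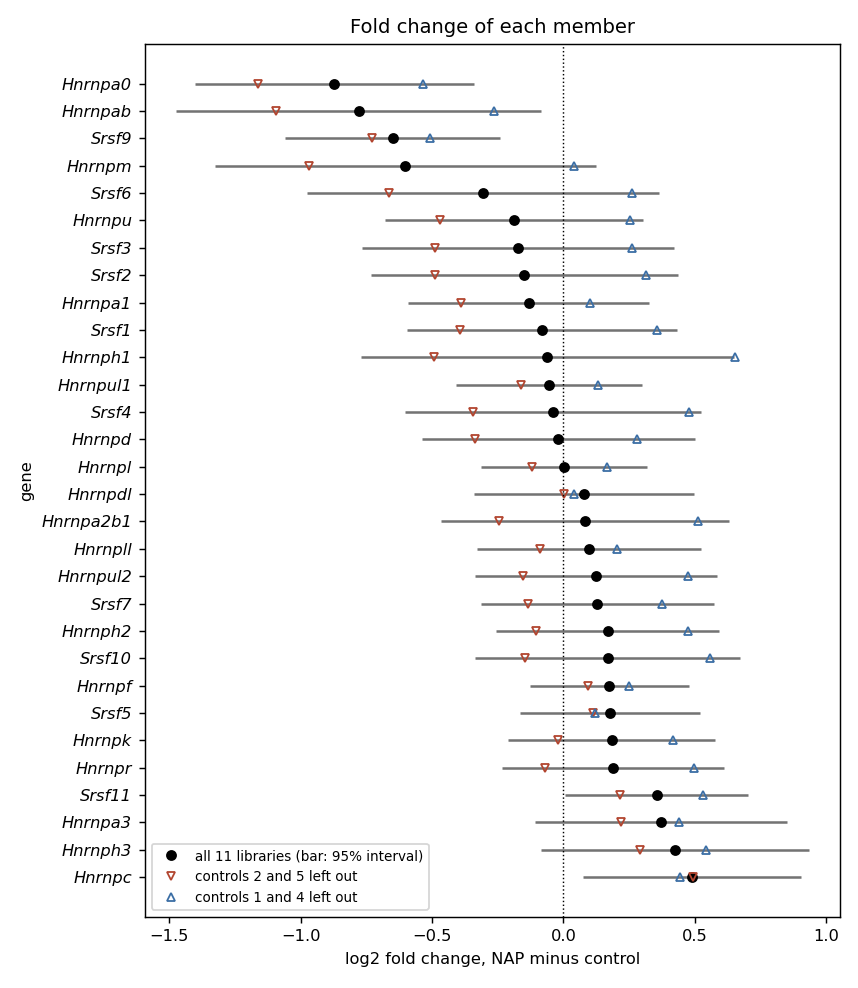
Log2 fold change, NAP minus control, of each tested SR and hnRNP gene with its 95% interval from edgeR (black), and the fold change with controls 2 and 5 (red) or controls 1 and 4 (blue) left out. Hnrnpa0 lies lowest at -0.87 and Hnrnpc highest at 0.49, and most genes lie further left without controls 2 and 5 and further right without controls 1 and 4.

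In most of these genes the controls lay further apart than the NAP libraries. In 27 of the 30 members (90%), controls 2 and 5 were both below the other 3 controls, against 34.0% of all genes. The same order held in some genes of the splicing lists described below, such as Syncrip and Celf1, and not in others, such as Raly. In 17 members (56.7%), controls 1 and 4 were both above the other 3, against 29.7% of all genes. Both orders held together in these 17 members and in 3487 of 14840 genes. The control range enclosed every NAP library in 17 members, against 26.5% of all genes. The SD of log2 CPM was larger among controls than among NAP libraries in 24 members (80%), against 63.3% of all genes, and its median over members was 0.223 in NAP and 0.501 in controls. Hnrnph1, which binds G-rich elements, shows this best. It had 132, 161 and 180 CPM as the lowest, median and highest NAP library, against 242, 72.0, 163, 275 and 72.0 CPM in controls 1 to 5. Every NAP library of Hnrnph1 lay inside the gap between the low and the high controls.

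**Figure D2:**
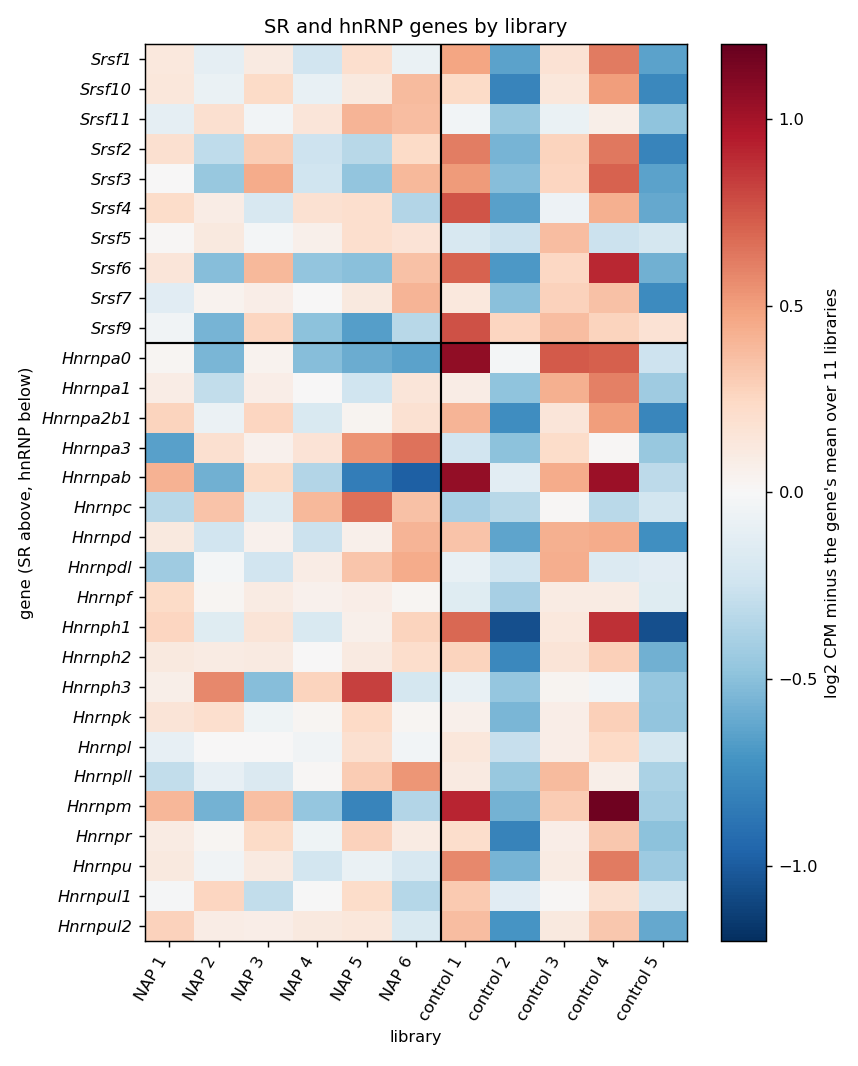
Log2 CPM of each tested gene minus its mean over the 11 libraries, with SR genes above and hnRNP genes below, and NAP libraries left of the controls. Controls 1 and 4 are mostly red and controls 2 and 5 mostly blue, and the 6 NAP libraries are mostly paler.

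The share of all gene counts, which uses the count total alone and no TMM factor, showed the same order. The TMM factors were 1.18 and 1.24 in controls 1 and 4 and 0.855 and 0.848 in controls 2 and 5. The controls therefore lie further apart in the shares than in CPM. SR genes took 0.141 ± 0.023% of counts in NAP libraries (SD, n = 6) and 0.154 ± 0.068% in controls (SD, n = 5). The controls 1 to 5 had 0.204, 0.0847, 0.171, 0.229 and 0.0814%, and NAP 1 to 6 had 0.156, 0.119, 0.166, 0.118, 0.125 and 0.164%. Here too NAP 1, 3 and 6 were above NAP 2, 4 and 5. The difference was within the spread (exact permutation, two-sided p = 0.669, or 0.818 after adjustment). The hnRNP genes took 0.386 ± 0.043% in NAP libraries and 0.430 ± 0.186% in controls (exact permutation p = 0.565, adjusted p = 0.818; n = 6 and 5). Without controls 2 and 5 the difference was -0.060 points for SR genes and -0.17 points for hnRNP genes. Without controls 1 and 4 it was 0.029 and 0.072 points. These controls are the lowest and the highest in the same shares, so leaving them out fixes the direction, and no p is given.

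**Figure D3:**
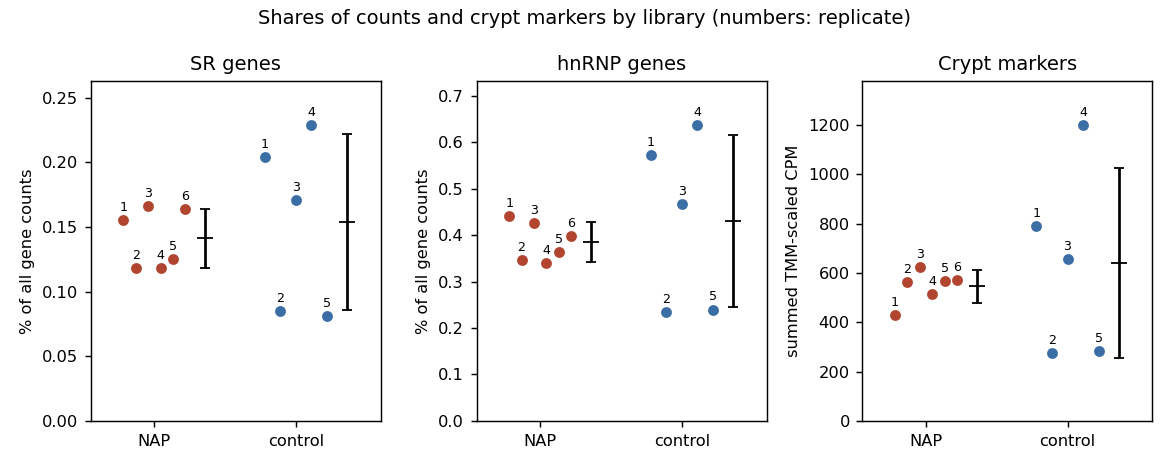
Percent of all gene counts taken by SR genes and by hnRNP genes, and the summed CPM of 10 crypt markers, in each library; numbers are replicates, and bars are mean ± SD. In all 3 panels controls 1 and 4 are high, controls 2 and 5 low, and the NAP libraries lie between them; without Pcna the crypt sum is 128 to 432 CPM in NAP and 69.7 to 1042 CPM in controls.

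The fold changes moved in the same way with the controls kept, which were likewise chosen with the members' levels known. Without controls 2 and 5 the median over members was -0.16 and 23 of 30 were negative. Without controls 1 and 4 it was 0.30 and 3 of 30 were negative, those being Hnrnpa0, Hnrnpab and Srsf9. Left out in this way, controls 2 and 5 gave 1 called member, Hnrnpa0 (log2 fold change -1.16, edgeR adjusted p = 0.0386), where 5.32% of all genes were called and 2.61% as lower. Controls 2 and 5 had the lowest Hnrnpa0 levels among the controls. Leaving them out therefore fixed a more negative value in advance, and the call is no support for a difference. Leaving out controls 1 and 4 gave 0 called members, where 8.28% of all genes were called.

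Among the SR genes related to SRSF1, Srsf9 encodes a relative with a short arginine and serine domain. Srsf9 (chr5:115465236-115471139 in the deposited table, GRCm39) had 21.4, 25.3 and 40.2 CPM as the lowest, median and highest NAP library. Controls 1 to 5 had 57.3, 40.2, 43.6, 40.6 and 37.9 CPM. In 5 of 6 NAP libraries the level was below every control, and NAP 3 overlapped them. The log2 fold change was -0.65 (SE 0.19, 95% interval -1.06 to -0.24, edgeR adjusted p = 0.0757). It was -0.73 without controls 2 and 5 and -0.51 without controls 1 and 4. Without NAP 3, the library that overlapped the controls, it was -0.78 (edgeR adjusted p = 0.0352), where 5.39% of all genes were called, 2.97% as lower. NAP 3 had the highest Srsf9 level of the NAP libraries. Leaving it out therefore fixed a more negative value in advance, and that call is no support for a difference. Over 26 alternatives the log2 fold change of Srsf9 ran between -0.78 and -0.46. The adjusted p ranged between 0.0252 and 0.229 over these and passed in 2 of them, DESeq2 and the fit without NAP 3. With GC and length trends removed no member had an edgeR adjusted p below 0.159. With a block for replicate number added to that, the value for Srsf9 was 0.229. Srsf1 itself, a general promoter of exon inclusion, averaged 197 ± 22.1 CPM in NAP and 208 ± 80.9 CPM in controls (SD, n = 6 and 5; log2 fold change -0.08, edgeR adjusted p = 0.860).

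Srsf2, which acts in splicing and in release of paused polymerase, and Srsf3, which also couples splicing to export, were among the SR genes with the highest deposited FPKM. Srsf2 had 181, 226 and 280 CPM as the lowest, median and highest NAP library, against 349, 154, 275, 353 and 131 CPM in controls 1 to 5. Its controls enclosed every NAP library, 2 of them lying below and 2 above (log2 fold change -0.15, SE 0.27, edgeR adjusted p = 0.769). Srsf3 had 94.99, 122 and 179 CPM in NAP, against 189, 92.5, 158, 216 and 84.6 CPM in controls 1 to 5. Its controls enclosed every NAP library (log2 fold change -0.17, SE 0.27, edgeR adjusted p = 0.734). Both values turned positive without controls 1 and 4, at 0.31 for Srsf2 and 0.26 for Srsf3.

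Srsf5 was the most abundant of the SR genes per length, at 188 ± 12.1 FPKM in NAP and 165 ± 33.6 FPKM in controls (SD, n = 6 and 5). In CPM it had 298, 322 and 349 in the lowest, median and highest NAP library, against 266, 254, 392, 253 and 262 in controls 1 to 5. All NAP libraries were above 4 of the 5 controls and below control 3 (log2 fold change 0.18, SE 0.16, edgeR adjusted p = 0.517). Its relative Srsf6 averaged 135 ± 40.9 CPM in NAP and 167 ± 78.4 CPM in controls (log2 fold change -0.30, edgeR adjusted p = 0.576). Srsf4 averaged 16.2 ± 2.53 CPM in NAP and 16.7 ± 7.15 CPM in controls (-0.04, edgeR adjusted p = 0.940).

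Srsf11, a divergent member of the family, had the highest positive fold change of the SR genes. It had 153, 185 and 219 CPM as the lowest, median and highest NAP library, against 160, 120, 156, 172 and 118 CPM in controls 1 to 5. In 4 of 6 NAP libraries it was above every control, and NAP 1 and NAP 3 overlapped them. The log2 fold change was 0.35 (SE 0.16, 95% interval 0.01 to 0.70, edgeR adjusted p = 0.206). With GC and length trends removed it was 0.11. Srsf7, a relative of Srsf3, and Srsf10, a splicing repressor when dephosphorylated, had log2 fold changes of 0.13 and 0.17, both with intervals that held 0.

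In the hnRNP A group, Hnrnpa0, which binds AU-rich mRNA, had the most negative fold change of all members. Hnrnpa0 (chr13:58273693-58276370, GRCm39) had 111, 121 and 179 CPM as the lowest, median and highest NAP library. Controls 1 to 5 had 363, 172, 290, 285 and 146 CPM. In 4 of 6 NAP libraries it was below every control, and NAP 1 and NAP 3 overlapped controls 2 and 5. The log2 fold change was -0.87 (SE 0.25, 95% interval -1.40 to -0.34, edgeR adjusted p = 0.0692). DESeq2 gave -0.85 with an adjusted p of 0.0165. It was -0.53 without controls 1 and 4 (edgeR adjusted p = 0.172). With GC and length trends removed it was -0.66 (edgeR adjusted p = 0.219). With a block for replicate number added to that, it was -0.51 (edgeR adjusted p = 0.302).

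The other A group genes had fold changes nearer 0 or positive. Hnrnpa2b1, an exon repressor and RNA transport factor, averaged 100 ± 12.02 FPKM in NAP and 94.1 ± 36.8 FPKM in controls (SD, n = 6 and 5). In CPM it had 456, 557 and 620 in the lowest, median and highest NAP library, against 686, 307, 570, 730 and 300 in controls 1 to 5. Its controls enclosed every NAP library (log2 fold change 0.08, SE 0.25, edgeR adjusted p = 0.868), and the value was -0.24 without controls 2 and 5. Hnrnpa1, the classic exon repressor, averaged 207 ± 25.8 CPM in NAP and 227 ± 75.3 CPM in controls (log2 fold change -0.13, edgeR adjusted p = 0.737). Hnrnpa3 had 51.5, 91.4 and 127 CPM as the lowest, median and highest NAP library, against 69.2, 57.6, 94.5, 81.9 and 59.2 CPM in controls 1 to 5. The groups overlapped, with 2 NAP libraries above every control and 1 below (log2 fold change 0.37, SE 0.22, edgeR adjusted p = 0.332). With GC and length trends removed the value for Hnrnpa3 was 0.08.

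A ratio of 2 genes within a library needs no scaling factor and shows how relatives stand to each other. The 24 pairs within subfamilies were chosen after the data were seen, and by then Hnrnpa0 was already known to have the lowest fold change. The p-values of its pairs are therefore no independent test of Hnrnpa0, and the adjustment over pairs does not change that. Hnrnpa0 over Hnrnpa2b1 was 0.285, 0.243, 0.291, 0.268, 0.218 and 0.190 in NAP 1 to 6, against 0.528, 0.559, 0.508, 0.391 and 0.489 in controls 1 to 5. Every NAP library was below every control, with controls 2 and 5 near the other controls. On the log2 scale the ratio averaged -2.02 ± 0.24 in NAP and -1.03 ± 0.20 in controls, a difference of -0.996 (exact permutation, two-sided p = 0.00216, the smallest that 462 splits allow, or 0.0260 after adjustment over 24 pairs).

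Hnrnpa0 over Hnrnpa1 was 0.788, 0.692, 0.801, 0.578, 0.646 and 0.477 in NAP 1 to 6, against 1.62, 1.14, 1.02, 0.892 and 0.935 in controls 1 to 5. Again no NAP library reached the lowest control (difference in log2 ratio -0.74, exact permutation p = 0.00216, adjusted p = 0.0260). These were the only 2 pairs of 24 that passed. Hnrnpa0 over Hnrnpa3 differed by -1.16 with overlapping groups (exact permutation p = 0.0173, adjusted p = 0.104). The transcript GC content of Hnrnpa0 is 55.4%, against 43.3% for Hnrnpa2b1 and 44.2% for Hnrnpa1. With GC and length trends removed from each library, the difference was -0.38 for Hnrnpa0 over Hnrnpa2b1 (exact permutation p = 0.0779) and -0.29 for Hnrnpa0 over Hnrnpa1 (exact permutation p = 0.132), and both pairs overlapped. Neither ratio passed once those trends were removed.

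**Figure D4:**
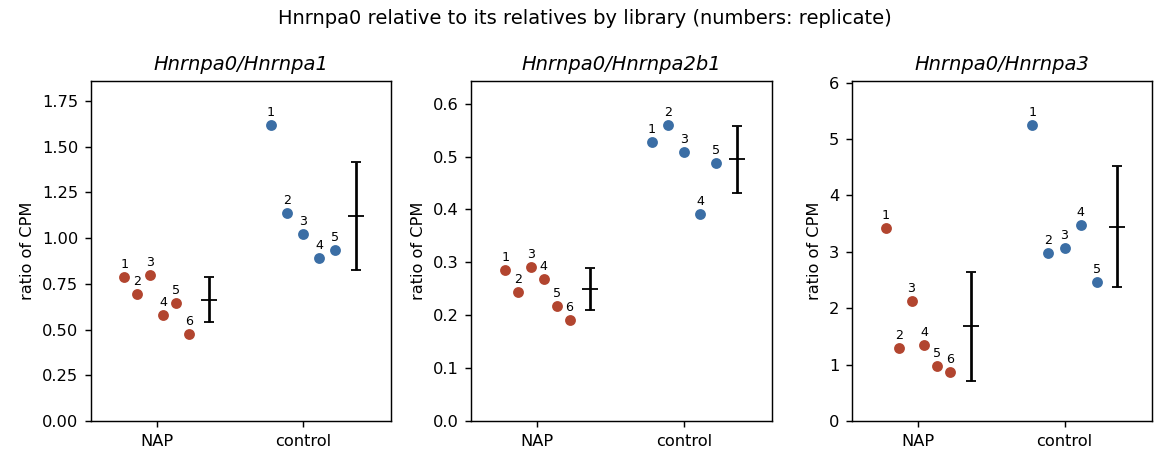
Ratio of the CPM of Hnrnpa0 to that of Hnrnpa1, Hnrnpa2b1 and Hnrnpa3 in each library, without removal of the GC trend; numbers are replicates, and bars are mean ± SD. In the first 2 panels all 6 NAP libraries are below all 5 controls, and in the third panel the groups overlap.

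In the D and A/B group, whose members bind AU-rich and single-stranded sequences, Hnrnpab had 99.4, 142 and 262 CPM as the lowest, median and highest NAP library. Controls 1 to 5 had 406, 180, 267, 399 and 157 CPM. In 4 of 6 NAP libraries it was below every control (log2 fold change -0.78, SE 0.32, edgeR adjusted p = 0.166). The value was -1.09 without controls 2 and 5 and -0.27 without controls 1 and 4. Hnrnpd, which promotes decay of AU-rich mRNA, and its relative Hnrnpdl had log2 fold changes of -0.02 and 0.08, both with adjusted p of at least 0.830.

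Hnrnpc, which binds uridine tracts in nascent RNA, had the most positive fold change of all members. Hnrnpc (chr14:52310834-52341491, GRCm39) had 192, 307 and 380 CPM as the lowest, median and highest NAP library, against 183, 192, 244, 193 and 207 CPM in controls 1 to 5. In 4 of 6 NAP libraries it was above every control, and NAP 1 and NAP 3 overlapped them. Hnrnpc, Srsf5 and Hnrnpdl were the 3 members in which controls 2 and 5 were not both below the other controls. The log2 fold change was 0.49 (SE 0.19, 95% interval 0.08 to 0.90, edgeR adjusted p = 0.146). It was 0.49 without controls 2 and 5, 0.45 without controls 1 and 4, and 0.15 with GC and length trends removed.

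**Figure D5:**
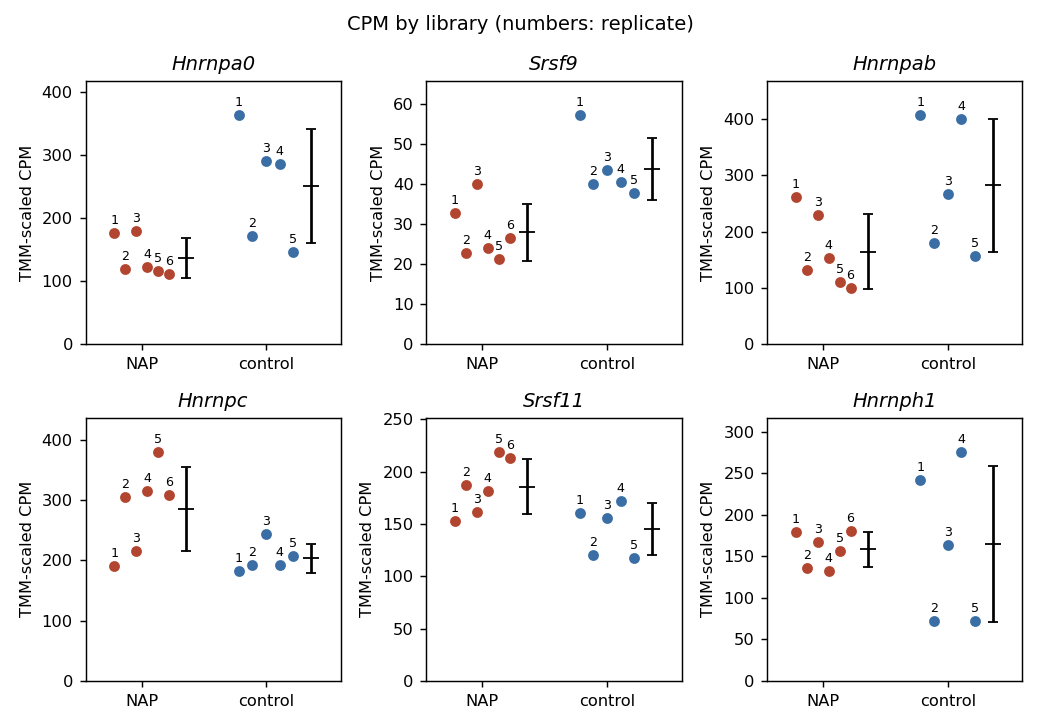
CPM of 6 SR and hnRNP genes in each library, NAP left of control; numbers are replicates, and bars are mean ± SD. Hnrnpa0, Srsf9 and Hnrnpab lie lower in most NAP libraries, Hnrnpc and Srsf11 higher, and the NAP libraries of Hnrnph1 lie between its low and high controls; every panel has overlapping groups.

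In the F and H group, which binds runs of G, Hnrnpf had 242, 250 and 281 CPM as the lowest, median and highest NAP library, against 216, 181, 255, 255 and 215 CPM in controls 1 to 5. The groups overlapped (log2 fold change 0.17, SE 0.14, edgeR adjusted p = 0.473). Hnrnph3 had 13.5, 21.7 and 33.9 CPM in NAP, against 18.1, 13.9, 19.6, 18.8 and 13.96 CPM in controls 1 to 5. In 4 of 6 NAP libraries it was above every control (log2 fold change 0.42, SE 0.24, edgeR adjusted p = 0.297). Hnrnph3 overlaps Pbld2 and Rufy2 on the other strand, and the sources used here do not say whether counting used strand.

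Hnrnpk, which binds C-rich RNA and DNA, had the highest FPKM of the hnRNP genes over the 11 libraries, at 109 ± 8.99 in NAP and 95.1 ± 23.2 in controls (SD, n = 6 and 5). In CPM it had 350, 385 and 426 in the lowest, median and highest NAP library, against 378, 247, 383, 442 and 260 in controls 1 to 5. Its controls enclosed every NAP library (log2 fold change 0.18, SE 0.18, edgeR adjusted p = 0.565). Hnrnpm, a partner of the spliceosome that binds GU-rich sites, had 62.6, 81.9 and 143 CPM in NAP, against 205, 73.1, 134, 243 and 81.9 CPM in controls 1 to 5. The groups overlapped (log2 fold change -0.60, SE 0.34, edgeR adjusted p = 0.297), and the value was -0.97 without controls 2 and 5 and 0.04 without controls 1 and 4. Among the remaining hnRNP genes, Hnrnpl, Hnrnpll, Hnrnpr, Hnrnpu, Hnrnpul1, Hnrnpul2 and Hnrnph2 had log2 fold changes between -0.19 and 0.19.

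The genes that act with these proteins were taken as 6 lists, and 1 of their 137 tested genes passed (0.730%), against 2.12% of all genes. Of the kinases, the phosphatase partner and the import receptors of SR proteins, 0 of 12 passed, with a median log2 fold change of 0.20 beside -0.07 over all genes. The CLK kinases Clk4 (0.45, edgeR adjusted p = 0.136) and Clk1 (0.74, edgeR adjusted p = 0.143) had the smallest p. Of the SR-related proteins 0 of 27 passed (median 0.15). Luc7l2, a U1 snRNP partner, had 305 ± 82.9 CPM in NAP and 171 ± 42.6 CPM in controls (SD, n = 6 and 5; log2 fold change 0.83, edgeR adjusted p = 0.0660), and Rbm39, a splicing coactivator, had 0.51 (edgeR adjusted p = 0.162).

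Of the hnRNP proteins under other names, 1 of 18 passed, and it fell, where 1.07% of all genes were called lower. Pcbp4, a poly(C)-binding protein, had 2.51 to 4.91 CPM in the NAP libraries, against 8.76, 9.29, 7.62, 6.50 and 7.73 CPM in controls 1 to 5. The ranges did not overlap, and controls 2 and 5 did not stand apart. Its log2 fold change was -1.15 (SE 0.23, edgeR adjusted p = 0.0386). The adjusted p ranged between 5.59e-05 and 0.166 over 26 alternatives, passed in 13 of them, and was 0.0971 with GC and length trends removed, where the value was -0.69. With single libraries left out the log2 fold change was -1.26 to -1.06. The call was lost without NAP 2, 4, 5 or 6 or control 1, 2, 3 or 5, each in turn, and in 6 of these 8 settings 0 genes of the whole table were called.

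Of the spliceosome core, 0 of 45 passed. The fold change was negative in 36 of the 45 (median -0.32), against 55.3% of all genes. An unadjusted edgeR p below 0.05 with a lower level in NAP was found in 15 of the 45, against 12.7% of all genes. Over the 12472 tested genes with a GC value, the rank correlation of fold change with transcript GC content was -0.44. The part of GC content in this list was not tested. The snRNP proteins Snrpa (-0.64, edgeR adjusted p = 0.0509) and Snrpb (-0.84, edgeR adjusted p = 0.0536) had the smallest p. Neither gene had overlapping groups, as in 3 of the 45 genes, against 4.7% of all genes. Snrpb had 68.2 ± 22.2 CPM in NAP and 122 ± 12.9 CPM in controls (SD, n = 6 and 5). Of the NMD factors, 0 of 16 passed (median -0.09). In 4 of the 16 the groups did not overlap, against 4.7% of all genes. Of these, Upf3a, Smg9 and Eif4a3 were lower in NAP, and Smg1 was higher (log2 fold change 0.51, edgeR adjusted p = 0.0826). Upf3a, which can oppose or aid decay, had 21.04 ± 4.78 CPM in NAP and 39.0 ± 11.1 CPM in controls (log2 fold change -0.89, edgeR adjusted p = 0.0516), and Smg9, a regulator of the SMG1 kinase, had -0.57 (edgeR adjusted p = 0.0789). Of other splicing regulators of epithelium, 0 of 19 passed (median -0.05), with Rbm10 at -0.66 (edgeR adjusted p = 0.0741) and Rbm47 at 0.61 (edgeR adjusted p = 0.0916). Esrp1, an epithelial splicing regulator, averaged 317 ± 58.4 CPM in NAP and 261 ± 24.3 CPM in controls (log2 fold change 0.28, edgeR adjusted p = 0.311).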

How the data were processed

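The authors deposited whole-number gene counts and FPKM values for 11 libraries. The submitters' processing notes name Trimmomatic 0.39, HISAT2 2.2.1, featureCounts, Subread 2.0.8 and the build GRCm39. The sources used here give no strand, annotation or multi-mapping setting, so overlapping genes (14 of 32 members) and near-identical copies are uncertain. Counts were filtered with filterByExpr, scaled with TMM and compared with edgeR 4.0.16 (robust quasi-likelihood test, no covariate, Benjamini-Hochberg over 14840 genes, threshold 0.05). DESeq2 1.42.0 and limma 3.58.1 (voom, or log2(FPKM + 1)) were alternatives. Standard errors are the log2 fold change over the square root of the statistic. Single values were compared by exact permutation over 462 splits. GC content came from GENCODE M21 for 84.0% of tested genes; GC and length trends were lowess fits per library. Named by rule were the members that passed, the 10 with the smallest p and the 3 of each family with the highest FPKM. Their levels are given for each control and for the lowest, median and highest NAP library. In each pathway list the genes that passed were named, else the 2 with the smallest p, with fold change and adjusted p. All other members and list genes named, Srsf12, Hnrnph1 and Esrp1 among them, were added after their values were seen. The members, lists and rules were chosen with earlier results of these data known. The fit was tested on simulated counts. Protein sequences were not used here.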

Additional observations from a re-analysis of the deposited data

Results flagged for a closer look

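Of 64 sets of values (each tested gene's CPM in each group, and 4 sets of summed shares), 4 held a single library far from the others of its group. Chance gives such a library in about 1 of 20 sets. Hnrnpf was 281 CPM in NAP 1, against 242 to 256 CPM in the other NAP libraries. Hnrnpl was 306 CPM in NAP 5, against 250 to 269 CPM in the other NAP libraries. Srsf5 was 392 CPM in control 3, against 253 to 266 CPM in the other controls. Hnrnpdl was 269 CPM in control 3, against 169 to 188 CPM in the other controls.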

How the results depend on the processing

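The number of members called was 0 in the main test and 2 with DESeq2, 2 at an adjusted p threshold of 0.10 and 1 without controls 2 and 5; leaving out each library in turn gave 0 to 1, the 1 being Srsf9 without NAP 3. The other alternatives gave 0. Over all genes the count called was 315, against 1721 with DESeq2, 1480 at 0.10, 41 with count totals alone, 89 with no filter, 824 without controls 2 and 5, 1315 without controls 1 and 4, 26 with GC and length trends removed, and 0 to 814 without single libraries. A replicate block called 0 genes and 0 members. NAP and control libraries that shared a number correlated between -0.30 and 0.42, and 2 of 5 correlated best with their own number. So few correlations cannot settle whether the libraries were paired. The block with GC and length trends removed also called 0. The SR median was 0.33 without controls 1 and 4, and -0.17 to 0.09 over single libraries left out. The median of all members was -0.12 with GC and length trends removed, -0.14 with the block added and -0.08 with count totals alone, against 0.04. For all members the range over single libraries was -0.04 to 0.13, and for hnRNP genes -0.01 to 0.16. The SR share difference was -0.031 to 0.0059 points over single libraries left out, -0.060 without controls 2 and 5 and 0.029 without controls 1 and 4. The hnRNP share difference was -0.093 to 0.0072, -0.17 and 0.072 points under the same settings. Values of these genes changed sign under some settings. Hnrnpa2b1 was -0.054 with count totals alone, -0.24 without controls 2 and 5, -0.16 with GC and length trends removed, -0.14 with the block added, and -0.041 to 0.24 over single libraries left out (-0.035 without control 2). Hnrnpk was -0.022 without controls 2 and 5 and -0.045 with GC and length trends removed, Hnrnpf -0.0085 with GC and length trends removed, and Hnrnpa3 -0.018 with those and the block. Without controls 1 and 4, Hnrnpm was 0.040, Srsf2 0.31 and Srsf3 0.26; leaving out each library in turn gave -0.29 to 0.0031 for Srsf2 and -0.30 to 0.0041 for Srsf3, positive without control 4. The cause was not tested.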
